A study of Mus musculus with 9 samples.

Results

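The transcripts described here are those whose array probes carry the name of a single GenBank cDNA. They were chosen by name alone, as the probes called 1 or 2 capital letters, 5 or 6 digits and the ending P1, and 1209 of the 59709 non-control probes on the array met this rule. Each had a single spot. The authors' deposited lncRNA table lists 751 of them and the deposited mRNA table none, so the remaining 458 carry no class in these files. Every listed probe was detected, in the sense given below, on at least 6 arrays, and every unlisted one on at most 5. Probes are called here by their accession without the ending. None of the 1209 accessions was paired with a gene name in the files or in the mouse reference tables used, so no probe is named as a gene, and neither its function nor its position is given.

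A long non-coding RNA, or lncRNA, is a transcript that is not translated into a protein, and many such transcripts were first seen as cDNA clones in large sequencing projects. An expressed sequence tag, or EST, is a single read from the end of a cDNA clone, whereas a full-length cDNA entry covers the whole insert of a clone. In heart tissue some lncRNAs are known to act on chromatin or on other RNAs during growth and remodelling of the muscle. Many others are known only as a sequence, and a probe designed on a lone EST reports signal from whatever transcript holds that stretch.

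Total RNA of mouse cardiac tissue was measured on 9 arrays, 3 in each of 3 groups. The WT arrays came from wild-type mice of the strain B6SV129F1. The TAC arrays carried the same strain label together with the words TAC surgery; in heart studies the abbreviation usually means transverse aortic constriction, which narrows the aorta and imposes a pressure load, but the labels do not spell it out. The CnA arrays came from the strain Myh6-CnA, a name used for mice in which the cardiomyocyte promoter of Myh6 drives calcineurin A, a phosphatase that promotes growth of heart muscle cells. The labels give no age, sex, interval after surgery or sham operation, nor the form of calcineurin A expressed, and they do not say whether arrays of a group came from separate animals. P-values therefore measure the spread between these arrays, which may be technical. Ribosomal RNA was removed and the RNA was amplified with random priming, so the signal does not depend on a poly(A) tail end. No marker gene of heart muscle or of another cell type could be tied to a probe by name, and the labelled tissue was not checked here.

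Raw brightness differed between the groups. The processed signal is an intensity after background subtraction, and its 75th percentile lay between 427.3 and 454.3 on WT arrays, between 262.5 and 279.5 on TAC arrays and between 283.0 and 300.2 on CnA arrays. Every value below is a scaled log2 signal, the log2 intensity minus the 75th percentile of its own array, so that 0 marks that percentile and negative values lie below it. All 3 WT arrays lay in row 1 of the first slide scan, TAC replicate 1 lay beside them, TAC replicates 2 and 3 and CnA replicates 1 and 2 lay in row 2, and CnA replicate 3 was alone in a second scan. Position on the slide and group are therefore partly confounded.

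ESTs made up 1034 of the 1209 probes, or 85.5%. The largest prefixes were BY with 143 probes, AA with 85, AI with 82 and BB with 70. Full-length cDNAs of the prefix AK numbered 93. A further 16 were BC entries, the prefix of the Mammalian Gene Collection, 17 were direct submissions with older or small prefixes, and 49 bore the prefixes BX or CR.

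The set was detected less often than the array as a whole. A probe counted as detected on an array when the scanner software set its flag for a signal well above background. The share of the 1209 probes detected was 61.7%, 63.4% and 67.5% on WT replicates 1, 2 and 3, 69.1%, 61.2% and 63.8% on the TAC arrays and 64.8%, 64.7% and 68.3% on the CnA arrays. Over all 59709 probes it lay between 67.6% and 77.3%. The groups overlapped in this share, at 64.2% ± 2.96 for WT, 64.7% ± 4.05 for TAC and 65.9% ± 2.06 for CnA (SD, n = 3). Thus the brighter WT arrays did not detect more of these probes.

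On all 9 arrays 658 probes, or 54.4%, were detected, against 61.8% of all probes, and 257, or 21.3%, were detected on none, against 14%. The share detected on all 9 arrays differed between kinds of entry. It was 66.7% for AK full-length cDNAs, 12 of 16 for BC entries and 12 of 17 for direct submissions, against 52.6% for ESTs and 28 of 49 for BX and CR entries. Among the larger EST prefixes it was 64% for AV and 62.9% for BB, and 37.1% for BU.

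For tests a probe had to be detected on all 3 arrays of at least 1 group. This left 773 of the 1209, and 44224 probes in all, which were fitted together with limma. The 773 are those bright enough to test, and their counts do not describe the dimmer remainder. Of the 773, 641 were ESTs, 71 AK cDNAs, 13 BC entries, 15 direct submissions and 33 BX or CR entries. A probe is called changed at an adjusted p under 0.05 over all 44224.

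Across the 773 probes, the median absolute difference between 2 arrays of the same group was 0.12 to 0.15 log2 units for TAC arrays, 0.14 to 0.23 for CnA arrays and 0.20 to 0.28 for WT arrays. Between a WT and a TAC array it was 0.50 to 0.64, between a WT and a CnA array 0.47 to 0.66, and between a TAC and a CnA array 0.24 to 0.36. The models thus lay closer to each other than to WT in these transcripts, and the WT arrays were the most scattered. The median SD of a probe within a group was 0.21 for WT, 0.12 for TAC and 0.16 for CnA, close to the 0.23, 0.11 and 0.15 of all tested probes.

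Many of these transcripts varied little. In 53 of the 773, or 6.86%, the highest and the lowest of the 9 arrays differed by less than 0.5 log2 units, against 6.02% of all tested probes, and in 319, or 41.3%, by less than 1 log2 unit, against 36.2%. The steadiest, picked after their values were seen, was BB231790, an EST. Its signal was 3.17, 3.16 and 3.20 in WT and 3.17, 3.18 and 3.21 in TAC, with 2.98, 2.98 and 3.06 in CnA. The EST BU939086 stayed between 1.04 and 1.30 on all 9 arrays, and the direct submission AF019385 between 1.30 and 1.57.

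A few varied within a group as much as others did between groups, and these were also picked after their values were seen. The EST BG089161 reached 6.30 on WT replicate 1, while the other WT arrays gave 3.75 and 3.51 and those of TAC and CnA 3.22 to 3.82. The EST C80954 stood at 0.56 on TAC replicate 3, against -2.93 and -2.97 on the other TAC arrays, -2.80 to -2.26 in WT and -3.41 to -2.96 in CnA. In each case 1 array stood apart from the other 8, and no comparison of these probes passed the threshold. The EST CJ161017 was low on CnA replicate 3, at -3.39, against 0.04 and -0.18 on the other CnA arrays. An SD above 1 log2 unit was reached by 19 of the 773 probes within WT, by 4 within TAC and by 13 within CnA. These were 2.46%, 0.517% and 1.68% of the set, beside 3.05%, 0.733% and 1.74% of all tested probes.

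Setting TAC beside WT asks which of these transcripts differ after the surgery. Most of those that changed were higher in TAC. Of the 773 probes, 363 rose and 75 fell, or 47% and 9.7%, where 39.6% and 20.5% of all tested probes did. The 438 called made 56.7%, where 60.1% of all tested probes were called, so that the set changed about as often as the array as a whole. It was the direction that was uneven, with 82.9% of the called probes higher in TAC against 65.8% of all called probes and 76.5% of the other called probes of the deposited lncRNA table. No test of that difference was made. In bulk tissue, more RNA per cell and more cells of a type that makes it cannot be told apart.

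The median log2 fold change was 0.43 over the 773 and 0.32 over all 44224. The latter is a shift of the whole array under this scaling, and against it 355 of the called probes were above and 83 were below. At 2-fold or more, 132 were higher and 28 lower, or 160 in all, where 27.2% of all tested probes were called at that size, 14% higher and 13.2% lower. Falls of that size were rarer among these probes than over the array. The 10th percentile of the log2 fold changes was -0.44 in the set and -1.39 over all probes, and the 90th percentiles were 1.28 and 1.21. The other probes of the deposited lncRNA table had a 10th percentile of -0.70, nearer that of the set, and those of the mRNA table -1.75. At 2-fold or more, 1577 of the 22313 other lncRNA-table probes were lower. The fitted difference of a probe had a 95% interval of 0.39 log2 units on either side at the median.

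Calls whose groups did not overlap, among probes detected on all arrays of both groups, numbered 312 rises and 63 falls in TAC, or 40.4% and 8.15%, where all tested probes had 35.5% and 15.3%. In CnA against WT they were 254 and 78, or 32.9% and 10.1%, beside 31.5% and 17.4%, and in CnA against TAC 32 and 43, or 4.14% and 5.56%, beside 8% and 6.42%. The probes named for each comparison are the largest of these. In every direction but the rises against WT, the set held fewer such calls than the array as a whole.

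The EST BB552656 had the largest such rise in TAC. Its signal was -3.91, -4.01 and -3.83 in WT and -1.62, -1.42 and -1.66 in TAC, a log2 fold change of 2.35 (SE 0.15, limma adjusted p = 5.8e-06), and 2.03 once the shift of the array is taken off. It stood at -1.97, -1.86 and -1.45 in CnA, so both models lay well above WT. The probe is dim, however, and in no group did it outshine all negative controls on each array.

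AB000619, a direct submission, was at -1.07, -1.14 and -1.37 in WT and 0.98, 0.91 and 1.18 in TAC. The log2 fold change was 2.22 (SE 0.12, limma adjusted p = 2.7e-06), the smallest p among the 8 largest rises. The gap between the groups was many times the spread in either. The bright EST BB722258 went from 3.05, 2.85 and 2.25 in WT to 4.83, 4.92 and 5.06 in TAC, a log2 fold change of 2.22 as well (SE 0.20, limma adjusted p = 3.3e-05).

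In 2 of the 8 the WT arrays were scattered. BX523225 lay at -0.11, -1.19 and -1.80 in WT and at 1.34, 1.23 and 1.32 in TAC, a log2 fold change of 2.33 (SE 0.35, limma adjusted p = 0.00067). The EST CN672059 lay at -2.07, -1.82 and -3.35 in WT against -0.36, -0.35 and -0.41 in TAC, and its log2 fold change was 2.04 (SE 0.34, limma adjusted p = 0.0011). Even so no WT array reached a TAC array.

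For 2 of the 8 the rise in TAC stood beside CnA values near those of WT. CR518734 was at -2.78, -3.47 and -3.32 in WT, at -0.85, -1.07 and -0.73 in TAC and at -3.12, -3.07 and -2.96 in CnA. The EST AU023603 was at -3.52, -3.48 and -3.81 in WT, -1.37, -1.43 and -1.44 in TAC and -3.73, -3.68 and -2.30 in CnA. Both lie far down the intensity scale, and AU023603 was detected on only 2 of the 3 CnA arrays. Neither outshone all negative controls on each array of any group. The EST AA089093 completed the 8, with a log2 fold change of 2.13 in TAC.

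Falls in TAC were fewer. Among those named by the same rule as the rises, the EST CK020084 had the largest, from 1.11, 1.45 and 1.36 in WT to -2.59, -2.25 and -2.46 in TAC, a log2 fold change of -3.74 (SE 0.14, limma adjusted p = 5e-07), or 13.4-fold lower. CnA lay between, at -0.56, -0.32 and -0.55. The groups did not overlap in any pairing. With normexp background correction the log2 fold change of CK020084 in TAC was smaller, at -2.69.

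The full-length cDNA AK136056 fell from 3.09, 3.20 and 3.29 in WT to 0.33, 0.35 and 0.38 in TAC, a log2 fold change of -2.84 (SE 0.10, limma adjusted p = 3.6e-07), the smallest p of all these probes named for TAC. Another full-length cDNA, AK201409, was at 2.88, 3.97 and 3.91 in WT and 1.03, 0.83 and 0.95 in TAC, a log2 fold change of -2.65. WT replicate 1 was the lowest WT array for AK201409, but it remained above every TAC array.

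The bright ESTs AA265991 and CF425770 had log2 fold changes of -2.47 and -2.46. AA265991 was at 5.94, 5.02 and 4.94 in WT and 2.85, 2.75 and 2.90 in TAC. CF425770 was at 4.71, 4.62 and 4.32 in WT and 2.07, 2.11 and 2.09 in TAC. Their falls were about equal, although WT was more scattered for AA265991. The ESTs DV645173, BQ443245 and AA117544 had log2 fold changes of -2.82, -2.17 and -1.94. BQ443245 is repeated on 8 rows of the authors' deposited lncRNA table. Relative to the shift of the array, all 8 falls were larger still, from -4.06 for CK020084 to -2.25 for AA117544.

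By kind of entry, the TAC comparison called 360 of 641 ESTs, or 56.2%, 304 of them higher and 56 lower. Over all tested probes 60.1% were called, 39.6% higher and 20.5% lower. AK cDNAs had more falls, with 29 higher and 16 lower among 45 called of 71. All 9 called BC entries of 13 and all 10 called direct submissions of 15 were higher. They include BC082544, which entered the fit only through TAC, where it is high. Also included are DQ023311 and U25158, which entered only through CnA and were detected on no WT or TAC array. The rises of these probes support no difference. BX and CR entries had 14 called of 33, 11 of them higher. These counts were not tested against each other.

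How often a probe was called also went with its brightness. Tested probes were divided into 3 equal classes by their mean signal over the 9 arrays, a division made after the results were seen, and 36.5% of the 773 fell in the dimmest class and 29% in the brightest. In TAC against WT, 140 of 282 probes of the set were called in the dimmest class, 150 of 267 in the middle class and 148 of 224 in the brightest. The shares were 49.6%, 56.2% and 66.1%, beside 48.1%, 59.4% and 72.8% of all tested probes. Falls were 15, 24 and 36 in these classes, or 5.32%, 8.99% and 16.1% of the set, beside 18.2%, 19.4% and 24% of all tested probes.

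With the row on the slide as a block, 338 of the 773 were called in TAC against WT, 285 higher and 53 lower. The share called was then 43.7% of the set and 50.1% of all tested probes. Within row 1, where TAC replicate 1 lay beside the 3 WT arrays, the median difference was 0.46 over the 773 and 0.34 over all 44224, a comparison with 1 TAC array and no test.

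The comparison of CnA with WT asks the same of the calcineurin strain. Here 307 probes were higher and 96 lower, so that 403 of 773, or 52.1%, were called, where 56.8% of all tested probes were, 36.2% higher and 20.5% lower. Of the called probes 76.2% were higher in CnA, against 63.8% of all called probes and 72.4% of the other called probes of the lncRNA table. The median log2 fold change was 0.31, and 0.22 over all 44224. At 2-fold or more 125 were higher and 38 lower, where 25.4% of all tested probes were called at that size, 13.9% higher and 11.4% lower. The strain label of CnA differs from that of WT, so strain background and transgene cannot be told apart. This comparison used the same WT arrays as the previous one.

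D89677, a direct submission, had the clearest rise. It stood at 3.11, 3.08 and 3.20 in WT, 4.92, 5.12 and 5.11 in TAC and 5.55, 5.56 and 5.57 in CnA. The log2 fold change in CnA was 2.43 (SE 0.10, limma adjusted p = 9.4e-07), or 5.39-fold, and the log2 fold change in TAC was 1.92. The groups lay far apart beside the spread of their replicates.

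Among called probes detected on all arrays of both groups without overlap, the largest rise was that of the full-length cDNA AK018881. It went from -3.78, -2.97 and -3.81 in WT to -1.01, -1.03 and -1.08 on the CnA arrays, a log2 fold change of 2.48 (SE 0.21, limma adjusted p = 3.4e-05). TAC lay between, at -1.76, -1.55 and -1.68. BX523225, BB552656, AA089093 and AB000619, given above for TAC, were also among the 8 largest rises in CnA, with log2 fold changes of 2.21, 2.16, 2.07 and 1.97 against the same WT arrays. The EST CF545861 had a log2 fold change of 1.82. It stood at -2.83, -3.64 and -3.06 in WT and -1.66, -0.83 and -1.56 in CnA, and the groups did not overlap.

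AK136056 had the largest fall in CnA by the same rule, to 1.16, 0.99 and 1.04, a log2 fold change of -2.13 (SE 0.10, limma adjusted p = 1.7e-06). AK201409 fell to 1.53, 1.58 and 1.28, a log2 fold change of -2.12. CK020084 and DV645173 followed with log2 fold changes of -1.78 and -1.64. For these 4 the log2 fold changes in TAC were -2.84, -2.65, -3.74 and -2.82, against the same WT arrays.

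The other named falls in CnA were ESTs. AA790567, bright in WT at 5.75, 5.54 and 5.48, was at 4.20, 4.09 and 4.07 in CnA and 3.73, 3.69 and 3.82 in TAC. AV463490 was at 1.20, 1.32 and 1.30 in WT, -0.24, -0.22 and -0.11 in CnA and 0.23, 0.28 and 0.10 in TAC. AA939626 was at -0.53, -0.66 and -1.25 in WT and -2.32, -2.26 and -2.30 in CnA. Their log2 fold changes in CnA were -1.47, -1.46 and -1.48, and DV067603 also had -1.48. Relative to the shift of the array these 4 falls were between -1.70 and -1.68.

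By kind of entry, 321 of 641 ESTs, or 50.1%, were called in CnA against WT, 247 higher and 74 lower. Over all tested probes 56.8% were called, 36.2% higher and 20.5% lower. Among AK cDNAs 50 of 71 were called, 35 higher and 15 lower. All 8 called BC entries of 13 and all 8 called direct submissions of 15 were higher, again including BC082544, DQ023311 and U25158. DQ023311 and U25158 entered the fit only through CnA, where they are high. BC082544 entered only through TAC and was detected on no WT or CnA array. Their rises support no difference. BX and CR entries were nearly balanced, with 9 higher and 7 lower of 16 called.

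With the row on the slide as a block, 316 probes were called in CnA against WT, 242 higher and 74 lower, or 40.9% against 47.5% of all tested probes. Without CnA replicate 3, the array of the second scan, 374 were called, 290 higher and 84 lower, or 47.9% against 53% of all probes tested then.

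The models were also set against each other directly. WT arrays enter this only through the shared spread and through the choice of probes tested. Of the 773 probes, 42 were higher in CnA and 50 lower, so that 92, or 11.9%, were called, where 17.4% of all tested probes were. Over the array 10.5% were called higher and 6.89% lower in CnA. The median log2 fold change was -0.13 over the 773 and -0.04 over all 44224. For 578 of the 773 probes, or 74.8%, the 95% interval of the difference between the models lay within 1 log2 unit of 0 on both sides, and for 203, or 26.3%, within 0.5. At 2-fold or more 21 were higher and 11 lower, where 6.28% of all tested probes were called at that size, 4.69% higher and 1.59% lower.

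Among called probes detected on all arrays of both models without overlap, the full-length cDNA AK029714 had the largest excess in CnA. It stood at -2.03, -2.24 and -2.09 in TAC and 0.22, 0.11 and 0.17 in CnA, so that the log2 fold change was 2.29 (SE 0.13, limma adjusted p = 2.6e-05). WT lay at -1.48, -1.77 and -1.91, so CnA alone stood apart by over 1 log2 unit. Its log2 fold change in TAC against WT was -0.40 (limma adjusted p = 0.025), and this call was lost with normexp background correction, at -0.04 (limma adjusted p = 0.75), and with the row block, at -0.35 (limma adjusted p = 0.11).

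AK029623, another full-length cDNA, had a like pattern. It was at 0.36, 0.37 and 0.39 in WT, -0.05, 0.04 and 0.37 in TAC and 1.98, 1.71 and 1.67 in CnA. Its log2 fold change between CnA and TAC was 1.67 (SE 0.14, limma adjusted p = 0.00017). The EST CO429845 was at -2.99, -2.79 and -2.87 in WT, -2.75, -2.72 and -3.06 in TAC and -1.63, -1.51 and -1.40 in CnA. In both, the WT and TAC arrays overlapped and the CnA arrays lay above all of them.

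The full-length cDNA AK217121 was the brightest probe named. It stood at 7.30, 7.06 and 6.98 in WT, 6.23, 6.28 and 6.44 in TAC and 7.81, 7.60 and 7.86 in CnA, and the difference between the models was 1.44 log2 units (SE 0.13, limma adjusted p = 0.00021). Its rise in CnA against WT, 0.64, depended on the scaling, since it was 0.03 under quantile normalization (limma adjusted p = 0.81). The remaining excesses in CnA, of CK020084 and AA265991, belonged to probes that were lower than WT in both models and lowest in TAC.

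On the other side, by the same rule, CR518734 was higher in TAC than in CnA by the most, with a log2 fold change of -2.17 (SE 0.18, limma adjusted p = 0.00019). The bright EST AA432627 stood at 4.92, 4.71 and 4.43 in WT, 6.48, 6.44 and 6.54 in TAC and 4.54, 4.40 and 4.62 in CnA. Its log2 fold change between the models was -1.97 (SE 0.14, limma adjusted p = 7.5e-05). WT and CnA overlapped, and every TAC array stood over 1 log2 unit above both.

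BM947798, an EST, was at -1.49, -1.5 and -1.66 in WT, -0.38, -0.47 and -0.36 in TAC and -1.70, -1.94 and -1.67 in CnA. The 95% interval of its difference between CnA and WT ran from -0.47 to 0.03, and that between CnA and TAC from -1.62 to -1.11. The full-length cDNA AK166279 was at -1.25, -1.25 and -1.27 in TAC and -2.31, -2.70 and -2.89 in CnA, with WT at -4.73, -3.84 and -3.72 and detected on 2 of 3 WT arrays. The EST BQ443209 was at -1.56, -1.71 and -1.72 in TAC and -2.90, -2.97 and -2.41 in CnA. For both, CnA lay between WT and TAC.

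The full-length cDNA AK007918 was named by the same rule but is the least secure. It was at 2.65, 1.11 and 1.43 in WT, 2.89, 2.89 and 2.96 in TAC and 1.75, 1.66 and 1.75 in CnA, and its WT spread enters the shared error. Its log2 fold change of -1.19 between the models had a limma adjusted p of 0.044, and leaving out any 1 TAC or CnA array ended the call, with limma adjusted p-values of up to 0.12.

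The number of calls between the models depended on single arrays. With WT replicate 1 left out it was 148, or 18.7%, beside 26% of all probes tested then. Leaving out TAC replicate 1, 2 or 3 gave 47, 46 or 55, and leaving out CnA replicate 1 gave 59. These were 6.06%, 5.84%, 7.03% and 7.53% of the set, beside 10.3%, 9.64%, 10.7% and 10.6% of all probes, so that the count fell over the array as a whole too. The balance turned as well, with 28 higher and 18 lower in CnA without TAC replicate 2, where 67.7% of all called probes were higher against 60.4% with every array. With the row on the slide as a block 75 were called, or 9.7%, beside 15.2% of all tested probes. Within row 2, which held CnA replicates 1 and 2 and TAC replicates 2 and 3, the median difference was -0.09 over the 773 and -0.02 over all 44224.

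By kind of entry, 65 of 641 ESTs were called between the models, 28 higher and 37 lower in CnA, and 15 of 71 AK cDNAs, 10 higher and 5 lower. Direct submissions had 6 called of 15, among them DQ023311 and U25158, which entered the fit only through CnA, where they are high. Counts by prefix were small, with 0 called of 28 for CJ, 1 of 29 for CA and 11 of 53 for AA. The share called was 11.9% of the set and 17.4% of all tested probes.

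The moderated F test over the 3 groups called 452 of the 773, or 58.5%, where 64.3% of all tested probes were called.

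Some probes were detected on all 3 arrays of a group and on none of another, and for these only a lower bound of the difference can be given. For the bound, the bright group's mean is set against, on each dim array, the higher of the probe's own signal and the lowest signal of any detected probe. These probes were picked for that pattern, and those detected in 1 group alone entered the fit only through the group where they are high, so their p-values are given as a description and support no difference. None of those named below outshone all negative controls on each array of any group, so the bounds rest on dim signals. Probes detected on all CnA arrays and no WT array numbered 21, or 1.74% of the 1209, against 0.888% of all probes. The reverse pattern had 5, or 0.414%, against 1.01%. For TAC there were 6 probes detected against no WT array, or 0.496%, and 4 the other way, or 0.331%, against 0.283% and 2.13% of all probes.

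The EST BB649909 had the largest bounds. It was detected on no WT array, where its values were -6.25, -5.59 and -6.66, and on every array of both models, at -2.06, -1.21 and -1.55 in TAC and -1.08, -1.40 and -0.68 in CnA. It was at least 5.93-fold higher in TAC and at least 8.7-fold higher in CnA than in WT (limma adjusted p = 1e-05 and 7.6e-06). The EST CN671952 and the full-length cDNA AK145170 shared the pattern. They were at least 2.51-fold and 2.49-fold higher in TAC than in WT, and CN671952 was at least 3.34-fold higher in CnA.

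DQ023311 and U25158, both direct submissions, were detected in CnA alone. DQ023311 was at -1.89, -2.01 and -1.74 in CnA, with -6.19, -6.50 and -5.70 in WT and -4.90, -4.72 and -4.93 in TAC. It was at least 4.9-fold higher in CnA than in WT and at least 3.43-fold higher than in TAC (limma adjusted p = 1.8e-06 and 5.6e-05). U25158 was at -2.12, -2.61 and -2.35 in CnA, at least 3.52-fold above WT and at least 2.46-fold above TAC. The EST AA667917 was detected in the same way, with a bound of 1.61-fold against TAC.

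BC082544, an entry of the Mammalian Gene Collection, was the single probe of the set detected on all TAC arrays and on no WT or CnA array. It was at -2.89, -3.15 and -2.99 in TAC, at least 2.23-fold above WT and at least 1.84-fold above CnA. In the other direction, the EST CB193518 was at -1.65, -1.86 and -2.09 in WT, -3.11, -3.37 and -3.49 in TAC and -4.71, -4.71 and -4.76 in CnA, where it was not detected. It was at least 4.06-fold lower in CnA than in WT (limma adjusted p = 2.6e-06) and at least 1.48-fold lower than in TAC.

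Other bounds were smaller. The EST BY726619, detected on no CnA array, was at least 2.29-fold lower there than in WT and at least 1.67-fold lower than in TAC. The full-length cDNA AK139572 and the entry BX521937 were detected on no TAC array and were at least 2.14-fold and 1.78-fold lower there than in WT. For AK035945, detected on no CnA array, the bound against WT was 1.19-fold.

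The authors' deposited lncRNA table repeats some probes on several rows with identical values, and what the repeats stand for is not stated. Of the 751 listed probes, 92, or 12.3%, had more than 1 row, the same share as among the other probes of that table. X53654, a direct submission, had 38 rows, the most of any. Its signal was 1.54, 1.13 and 1.43 in WT, 1.36, 1.34 and 1.24 in TAC and 0.79, 1.09 and 1.5 in CnA, and no comparison of it passed the threshold. The EST BI319486 had 37 rows and was called in no comparison either. BC160302, with 32 rows, was at 4.54, 4.66 and 4.45 in WT, 5.27, 5.22 and 5.37 in TAC and 5.20, 5.11 and 5.21 in CnA. It rose by 0.73 in TAC and by 0.62 in CnA (limma adjusted p = 0.00032 and 0.00091). Since a repeated probe counts once here, the row counts of that table overstate the number of probes.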

How the data were processed

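Per the file headers, the 9 arrays were scanned in 1 channel and read with Agilent Feature Extraction 11.0.1.1 on a design of build mm9. A second dye appears in the labels, but the files hold no values of it. The deposited processed signal is an intensity, background-subtracted and detrended, and the flags of 0 or 1 come from the same software. The authors' deposited lncRNA and mRNA tables hold log2 values, of unstated normalization. All 18 of their value columns mapped to a sample by name.

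Control spots were left out, and 130 probes with an outlier flag, 2 of them in this set, were not fitted. Log2 processed signals were scaled to the 75th percentile of each array. limma 3.58.1 in R 4.3.3 was fitted to all 9 arrays and 44224 probes, with p-values adjusted by Benjamini and Hochberg over all of them, and the fit was tested on simulated data. No spot of the set was saturated, and the number of arrays limits the precision. The members, kinds of entry and rules were chosen with earlier results of these data known.

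Probes were named by rule: the 8 largest rises and falls in each model against WT and the 6 each way between the models, among called probes detected on all arrays of both groups without overlap; those with opposite calls against WT; the 3 largest bounds of each detection pattern. Exceptions are marked as picked after their values were seen, and the probes with the most table rows were picked by their rows. Of 5 accessions of published cardiac lncRNAs on a list of marker transcripts, 0 are in the set. Probe sequences and a genome were not used here.

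Same-numbered arrays deviated from their group means with correlations of -0.22 to -0.02 over 9 pairs, so the numbers were not taken to pair the samples.

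Alternatives were scaling to the median, quantile normalization, normexp with an offset of 50, the deposited tables, other filters, array weights, blocks for replicate number and slide row, fits of the compared groups alone, a 2-fold minimum and leaving out each array.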

Additional observations from a re-analysis of the deposited data

How the results depend on the processing

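With 3 arrays per group precision is limited. Only 371 of the 773 tested probes outshone all negative controls on each array of some group. Among the largest rises and falls named against WT, BB552656, CR518734, AU023603, CF545861 and AA939626 did not pass this filter. Of those named between the models, CO429845, AK166279 and BQ443209 did not pass either, nor did any probe named for a detection pattern. That filter, chosen after seeing the data, left 260 calls for TAC and 255 for CnA, each against WT, and 285 in the F test, or 70.1%, 68.7% and 76.8% of the 371, beside 74.5%, 71.2% and 80.1% of the 23917 probes that passed it. A 2-fold minimum left 160, 163 and 208, and 32 between the models. These were 20.7%, 21.1%, 26.9% and 4.14% of the set, beside 27.2%, 25.4%, 32.8% and 6.28% of all tested probes. Fewer probes or a stricter threshold lower the counts by construction. Between the models, fitting those groups alone gave 166 calls, or 21.5%, beside 27.2% of all tested probes. Array weights gave 213, or 27.6%, beside 34.1%, and the cause was not tested. With the replicate block the calls were 391, 364 and 58 in the 3 comparisons and 406 in the F test, and 0 of 9 arrays correlated best with their own number. Those calls were 50.6%, 47.1%, 7.5% and 52.5% of the set, beside 55.6%, 52.2%, 12.1% and 58.1% of all tested probes. Leaving out 1 array at a time gave 364 to 462 calls in TAC, 332 to 424 in CnA, 46 to 148 between the models and 377 to 468 in the F test. At the low ends the set had 46.3%, 42.2%, 5.84% and 48% called, beside 51.2%, 49.2%, 9.64% and 55.6% of all probes. At the high ends it had 59.2%, 53.7%, 18.7% and 60%, beside 61.9%, 59.8%, 26% and 63.5%. The balance of directions moved with scaling and background correction. With scaling to the array median, 298 probes were higher and 86 lower in TAC, 236 and 116 in CnA, and 37 and 61 between the models. With quantile normalization these were 296 and 89, 248 and 114, and 40 and 60. With normexp background correction they were 495 and 66, 418 and 87, and 35 and 50. Over all probes the share of called probes that were higher in TAC was 59.6%, 59.9% and 75.1% under these settings, and in the set 77.6%, 76.9% and 88.2%. In CnA it was 55.3%, 56.4% and 71.9%, and in the set 67%, 68.5% and 82.8%. Between the models it was 55.6%, 58.1% and 54.1%, and in the set 37.8%, 40% and 41.2%. The share called in TAC was 49.7%, 49.8% and 72.6% of the set, beside 54.6%, 55.8% and 73.6% of all tested probes. For CnA it was 45.5%, 46.8% and 65.3%, beside 52.3%, 53.3% and 66.4%. Between the models it was 12.7%, 12.9% and 11%, beside 17.5%, 18.1% and 15.6%. The flag for positive and significant signal, a looser condition, put 84% of the set as detected on average, against 65% with the flag used. Of 1022 recomputed fold changes, from 47 values of named probes, 1002 kept direction and call, 20 kept direction but lost the call, and 0 reversed. The 20 were AK007918 between the models, AK029714 in TAC and AK217121 in either model against WT. The tally scores direction and call, not size, for probes picked mostly as the largest changes in these data. Several settings refit the same values, so the absence of reversals was largely set in advance and is no test of robustness. Sizes of some dim probes shrank with normexp background correction. In TAC, BB552656 went from 2.35 to 1.32 and CR518734 from 2.31 to 1.41, but the bright BB722258 from 2.22 to 2.09.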
